A study of Homo sapiens with 6 samples.

Results

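The microRNA genes described here are those whose array annotation gives a single symbol that begins with MIRLET7 or runs from MIR1 to MIR298, with an optional letter or copy number. Host transcripts were not taken, and MIR127, MIR134, MIR136 and MIR154 were left out. The choice used names only and no measured value. It gave 168 genes, read by 182 array features, which is 1.13% of the 14884 named genes of the series. The other 904 microRNA genes of the arrays were used for comparison only. The low numbers hold most microRNAs that are conserved among mammals, since numbers were given in the order of discovery.

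Total RNA came from SUM159, a human cell line of triple-negative breast cancer. In the decitabine group the cells were kept for 72 h in 1 µM decitabine with a daily change of medium, and in the untreated group they were kept for 72 h in control medium, with 3 single-colour expression arrays in each group. Decitabine replaces deoxycytidine in newly made DNA and holds DNA methyltransferases fast on it, so that CpG methylation is lost as cells divide. The treatment protocol in the labels names a deoxy form of azacytidine, while the sample descriptions name decitabine, and the titles of the untreated samples carry the dose as well. Solvent in the control medium is not mentioned, and neither is whether each sample was its own culture. The p-values therefore measure only how far these samples spread, which may reflect technical variation. The comparison asks which microRNA genes change in level after exposure to the drug.

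A microRNA gene is transcribed into a long primary transcript, from which the Drosha and DGCR8 complex cuts a hairpin and Dicer cuts a mature strand. The mature strand guides an Argonaute protein to messenger RNAs that pair with its seed, bases 2 to 8, and lowers their translation or stability. Many microRNA genes lie in introns or exons of a longer host transcript, and several can share 1 primary transcript. The arrays were labelled from total RNA. Which of these RNAs a feature read (primary transcript, hairpin or mature strand) is not given in the sources used here, so every value below is that of a gene's feature. A value is on the log2 scale as deposited, and a change is the mean of decitabine minus untreated over the 3 pairs of arrays with the same replicate number, with its standard error (SE) from the fit. Since features differ in brightness, values of different genes are not compared as amounts.

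The 6 hairpins below are those of the 3 genes that fell after decitabine and of 3 further genes with large changes that did not pass the test. The sequences are from RefSeq on GRCh38.p14, 5′ to 3′, with the seeds of the mature strands that RefSeq lists in capitals. All 6 lie on the minus strand, and the coordinates are RefSeq's, since no build was named for the arrays.
MIRLET7A2, chr11:122146522-122146593: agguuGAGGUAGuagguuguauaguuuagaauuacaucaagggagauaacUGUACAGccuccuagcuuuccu
MIR181B1, chr1:198858873-198858982: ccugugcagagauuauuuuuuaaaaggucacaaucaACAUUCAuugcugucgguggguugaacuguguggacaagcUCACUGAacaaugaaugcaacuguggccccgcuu
MIR181A1, chr1:198859044-198859153: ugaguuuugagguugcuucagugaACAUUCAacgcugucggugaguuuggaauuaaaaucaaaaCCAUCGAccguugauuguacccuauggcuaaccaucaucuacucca
MIR221, chrX:45746157-45746266: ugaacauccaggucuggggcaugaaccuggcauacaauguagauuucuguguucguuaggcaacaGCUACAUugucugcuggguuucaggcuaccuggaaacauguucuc
MIR222, chrX:45747015-45747124: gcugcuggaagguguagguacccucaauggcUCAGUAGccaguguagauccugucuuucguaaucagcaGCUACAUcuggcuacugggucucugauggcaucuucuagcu
MIR29A, chr7:130876747-130876810: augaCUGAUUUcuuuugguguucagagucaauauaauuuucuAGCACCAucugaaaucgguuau

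MIR181B1 and MIR181A1 lie within 281 bases of each other, and MIR221 and MIR222 within 968 bases. RefSeq hairpins were found for 150 of the 168 genes, and 264 mature names for 159 of them. The hairpins were 64 to 137 bases long, with a median of 86, and 57 seeds were shared by more than 1 of the genes.

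After decitabine 0 of the 168 microRNA genes rose, 3 fell and 165 did not pass the test (limma with the replicate number as a block, Benjamini-Hochberg adjusted p under 0.05 over all named genes). The genes that fell were MIR181B1, MIRLET7A2 and MIR221. They are 1.79% of the microRNA genes described, whereas 13.2% of all named genes passed in the same fit, 5.37% lower and 7.79% higher after decitabine. At an unadjusted p under 0.05 there were 21 of the 168 genes, 17 lower and 4 higher. Of the 14884 named genes 4206 were under it, 1921 lower and 2285 higher. Without the block 2 of the 168 genes passed, MIR181B1 and MIRLET7A2, both lower, against 3.03% of all named genes. Of the other 904 microRNA genes 9 rose and 14 fell, or 2.54%.

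The median change of the 168 genes was -0.04, beside -0.02 for all named genes and -0.06 for the other microRNA genes. By pair of arrays the median was 0.00, -0.05 and -0.07. Changes ran from -1.72 to 0.64, with 94 genes below 0 and 72 above. The 3 decitabine arrays were all lower than the 3 untreated arrays for 7 genes and all higher for 1 gene, and among all named genes 8.74% were lower and 11.3% higher in this way. The 95% interval of the change lay within -1 and 1 for 151 of the 168 genes. Its upper end was below 1 for 164 of them, so a rise of at least 1 on the log2 scale was outside the interval for all but MIR194-2, MIR27B, MIR29C and MIRLET7F1. This holds for the deposited values. Whether features with low values could show such a rise was not tested.

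**Figure D1:**
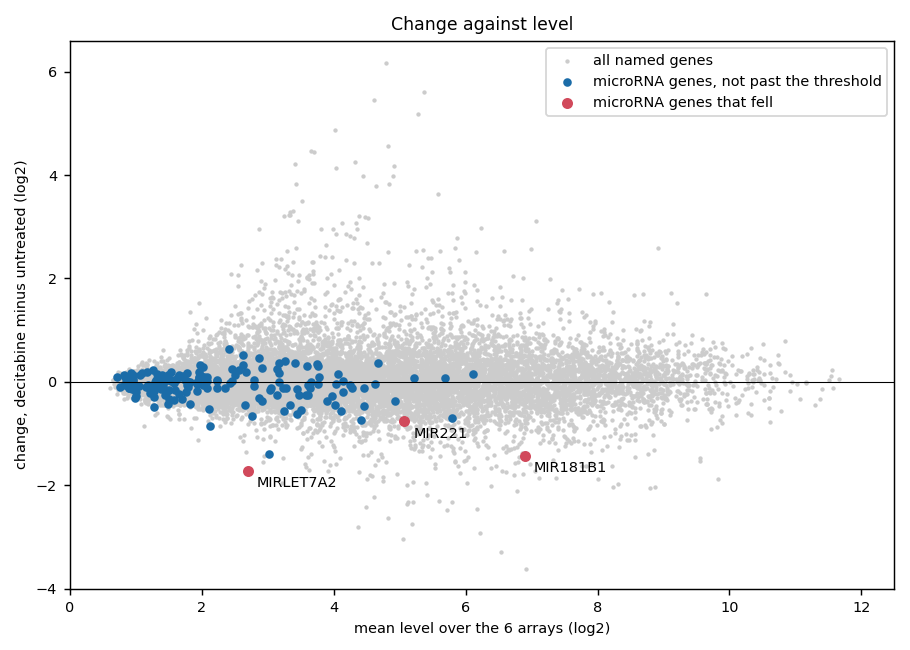
Change after decitabine (decitabine minus untreated, log2) against the mean deposited value over the 6 arrays for all named genes (grey) and the 168 microRNA genes (blue, and red for the 3 that fell). The microRNA genes lie at low to middle values, between 0.72 and 6.90, and those with the lowest values sit close to 0.

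Most of the microRNA genes had low values. Their mean over the 6 arrays had a median of 1.96 (quartiles 1.38 and 3.19), beside 3.57 for all named genes. Of the 32 microRNA genes above that series median 2 fell, or 6.25%, beside 21.3% of all named genes above it that rose or fell. Of the others 1 fell, or 0.735%, beside 5.05% of all named genes at or below it. No detection call was used, so a feature that reads little more than background is not marked as such.

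MIR181B1 codes for miR-181b, which is studied in lymphocyte development and as an inhibitor of NF-κB signalling in blood vessels. Its values were 6.39, 6.06 and 6.09 in the decitabine arrays, against 7.59, 7.51 and 7.76 in the untreated arrays. The groups did not overlap, and every decitabine array was more than 1 below its untreated partner. The level fell by 1.44 (SE 0.14, limma adjusted p = 0.00381, and 0.0102 without the block), which is 2.71-fold lower after decitabine. In RNA from a whole culture, less RNA per cell and fewer cells that make it cannot be told apart. Its neighbour MIR181A1 codes for miR-181a, a modulator of T cell receptor sensitivity. It had values of 1.78, 1.82 and 1.51 after decitabine and 2.51, 1.96 and 3.19 in untreated cells. All 3 decitabine arrays were below all 3 untreated ones, but the untreated values were spread and the change of -0.85 (SE 0.29) did not pass (adjusted p = 0.113). It was -0.435 without the replicate 3 pair, and -0.53 without untreated replicate 3 in the fit without the block. MIR181A1HG, the long non-coding transcript that hosts both, had 5.38, 4.89 and 4.51 in decitabine arrays and 6.09, 6.43 and 5.36 in untreated arrays. It fell by 1.03 (SE 0.19, adjusted p = 0.0222, and 0.189 without the block), with 1 decitabine array just above the lowest untreated one.

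The miR-181 family holds 6 genes in 3 places of the genome, which give mature strands with the seed ACAUUCA.
hsa-miR-181a-5p: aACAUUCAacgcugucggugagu
hsa-miR-181b-5p: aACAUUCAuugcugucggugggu
hsa-miR-181c-5p: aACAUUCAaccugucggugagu
hsa-miR-181d-5p: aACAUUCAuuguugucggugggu
These are shown because MIR181A1 and MIR181A2 give the same miR-181a-5p, and MIR181B1 and MIR181B2 the same miR-181b-5p. MIR181B1 was the family's only gene to pass, and the median over the 6 genes was -0.02. MIR181B2, on chromosome 9, had values of 2.66, 2.40 and 1.34 in decitabine arrays and 2.28, 2.14 and 1.69 in untreated arrays, a change of 0.10 (95% interval -0.33 to 0.53). MIR181A2 beside it had 2.62, 2.13 and 1.65 after decitabine and 2.54, 1.48 and 1.43 in untreated cells, a change of 0.32 (adjusted p = 0.247). Both overlapped between the groups. Their host MIR181A2HG had a change of 0.43 (SE 0.19, adjusted p = 0.214). MIR181C and MIR181D on chromosome 19 had changes of 0.02 and -0.06. The difference between the copies was not tested.

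MIRLET7A2 is 1 of 3 genes for let-7a, a microRNA of differentiated cells that represses growth genes such as HMGA2. Its values were 2.51, 1.38 and 1.62 in decitabine arrays, against 3.42, 3.67 and 3.57 in untreated arrays. The groups were well apart, and decitabine replicate 1 stood above the other treated arrays. Both arrays of replicate 1 had the highest median of their group, but untreated replicate 1 had the lowest untreated value of this gene. A link to array brightness was not tested. The level fell by 1.72 (SE 0.27, adjusted p = 0.0139, and 0.0262 without the block), or 3.29-fold. MIR100, which lies with it on the same strand in a stretch of 5787 bases, had 1.80, 1.53 and 1.49 after decitabine and 2.49, 1.88 and 1.73 in untreated cells, a change of -0.43 that did not pass (adjusted p = 0.111). The long transcript MIR100HG, which runs through both, had a change of -0.28 (SE 0.14, adjusted p = 0.256).

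The let-7 family was measured through 11 of its 12 genes, and all 11 give a mature strand with the seed GAGGUAG.
hsa-let-7a-5p: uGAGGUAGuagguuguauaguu
hsa-let-7c-5p: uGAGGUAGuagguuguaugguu
hsa-let-7d-5p: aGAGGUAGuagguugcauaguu
hsa-let-7e-5p: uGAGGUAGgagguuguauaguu
hsa-let-7f-5p: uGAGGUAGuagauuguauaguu
hsa-let-7g-5p: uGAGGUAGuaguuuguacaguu
hsa-let-7i-5p: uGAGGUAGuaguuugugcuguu
hsa-miR-98-5p: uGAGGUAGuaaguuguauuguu
They are shown to set the shared seed beside the unequal changes of the genes. MIRLET7A2 fell and the other 10 genes did not pass, and the median of the 11 was -0.26 with 8 below 0. MIRLET7A1 and MIRLET7A3, which give the same let-7a-5p as MIRLET7A2, had changes of -0.26 and -0.05. MIRLET7A3 had 3.74, 4.07 and 3.41 in decitabine arrays and 3.74, 4.07 and 3.55 in untreated arrays, so that 2 of its pairs were equal to the deposited digits. Such equal values are not particular to this gene. Of all features 6.4%, 7.9% and 8.3% had equal values in the pairs of replicates 1, 2 and 3. MIRLET7I (-0.66, adjusted p = 0.159), MIRLET7E (-0.55, adjusted p = 0.111) and MIR98 (-0.46, adjusted p = 0.0966) were the next lowest. MIRLET7G had the highest change, 0.24, and MIRLET7F1 the widest interval, -0.75 to 1.08.

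LIN28 proteins bind let-7 precursors, in part through a GGAG motif in the loop region, and block their processing. The whole hairpin was searched on the transcribed strand, not the loop region alone. The letters GGAG stood in 9 of the 11 let-7 hairpins and were absent from those of MIRLET7A3 and MIR98. Among all 150 hairpins 53 held them, or 35.3%. The 2 let-7 genes without these letters had changes of -0.05 and -0.46, within the range of the 9 with them. Whether the motif or LIN28 had a part in the changes was not tested.

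MIR221 and its neighbour MIR222 code for microRNAs that are abundant in basal-like breast cancer lines and repress the cell cycle inhibitor p27. MIR221 had 5.04, 4.92 and 4.10 in decitabine arrays, against 5.74, 5.55 and 5.06 in untreated arrays. The groups parted narrowly, and the differences within pairs were alike, at -0.70, -0.63 and -0.96. The level fell by 0.76 (SE 0.13, adjusted p = 0.0182), or 1.70-fold, and did not pass without the block (adjusted p = 0.319). Without decitabine replicate 3, in the fit without the block, the change was -0.47. MIR222 had 5.61, 5.72 and 4.99 after decitabine and 7.28, 5.50 and 5.64 in untreated cells. Its change of -0.70 (SE 0.34, adjusted p = 0.244) was -0.13 without untreated replicate 1 (no block), -0.215 without the replicate 1 pair and -1.16 without the replicate 2 pair, which went the other way. Their mature strands share the seed GCUACAU and differ after it.
hsa-miR-221-3p: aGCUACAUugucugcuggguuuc
hsa-miR-222-3p: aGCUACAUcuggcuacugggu

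**Figure D2:**
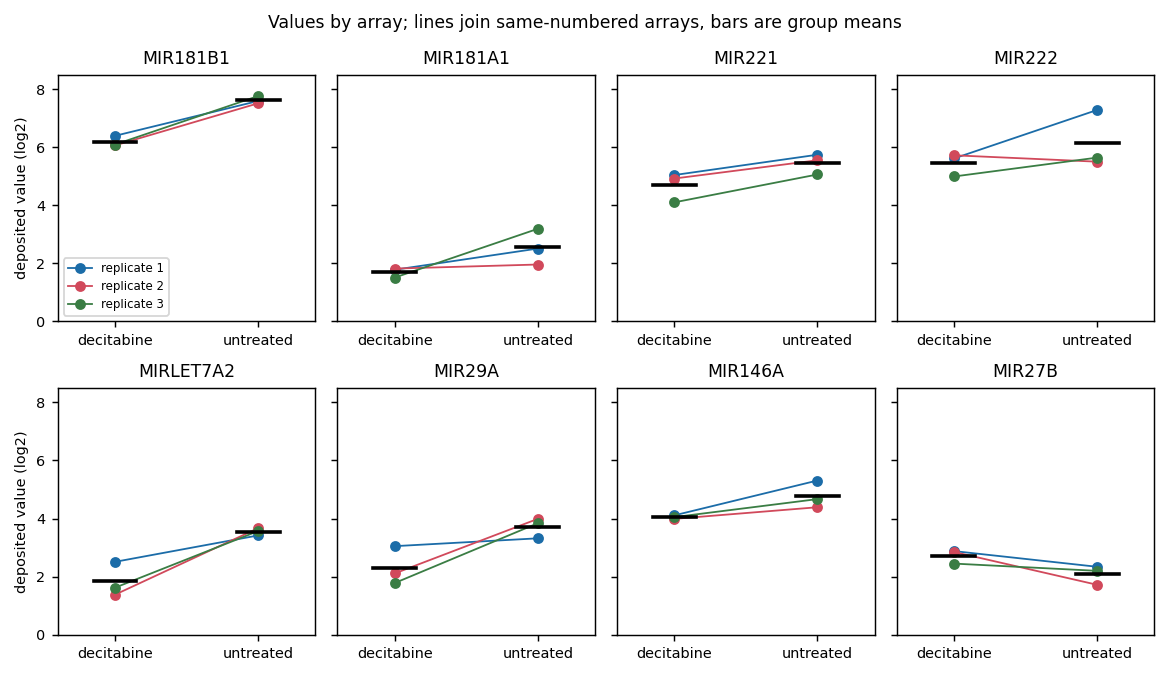
Deposited value (log2) in each array for 8 microRNA genes, decitabine left and untreated right in every panel, with lines joining arrays of the same replicate number and bars at the group means. MIR181B1, MIRLET7A2 and MIR221 fall in every pair, MIR222 in 2 pairs, and MIR27B is higher after decitabine in every pair.

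MIR29A, which codes for a microRNA that represses collagens and DNMT3A and DNMT3B, had the largest change that did not pass. It had 3.05, 2.11 and 1.78 in decitabine arrays and 3.32, 3.99 and 3.84 in untreated arrays. The groups did not overlap, but the difference within the first pair was -0.27 and those within the others were -1.88 and -2.06. The change was -1.40 (SE 0.35, adjusted p = 0.0524). MIR29B1, in the same cluster, had a change of 0.02, and its values lay between 0.87 and 1.01 in all 6 arrays. MIR29B2 and MIR29C, a pair on chromosome 1, had changes of -0.31 and 0.52. The 4 genes share the seed AGCACCA.
hsa-miR-29a-3p: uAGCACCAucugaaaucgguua
hsa-miR-29b-3p: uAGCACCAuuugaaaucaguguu
hsa-miR-29c-3p: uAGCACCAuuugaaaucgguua

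**Figure D3:**
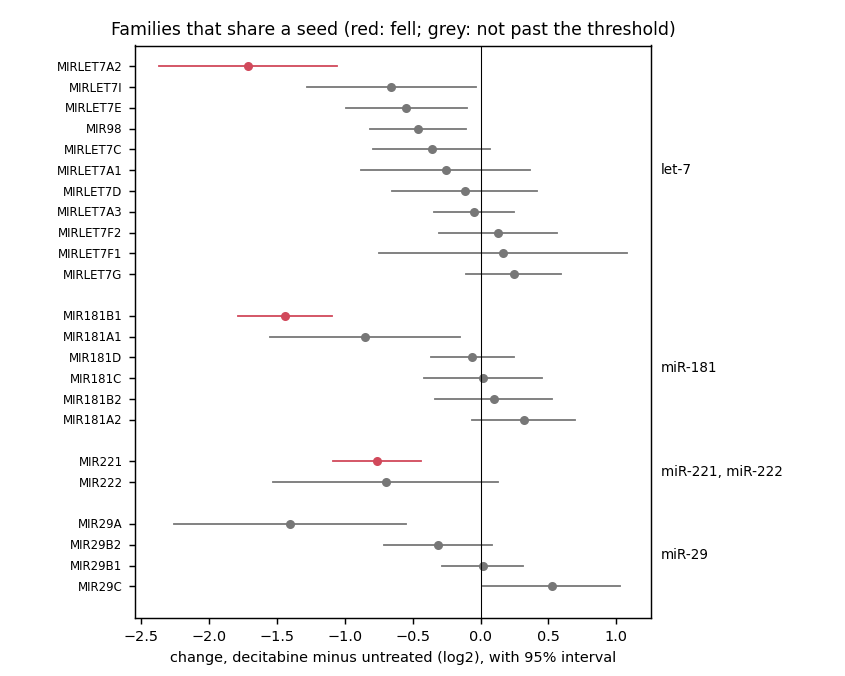
Change after decitabine (log2, decitabine minus untreated) with its 95% interval for the genes of 4 families that share a seed, ordered within each family, red for genes that fell. In the let-7, miR-181 and miR-29 families 1 gene stands at -1.40 or lower while the median gene is between -0.26 and -0.02.

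Other genes with large changes did not pass. MIR146A, an inhibitor of NF-κB signalling through TRAF6 and IRAK1, had 4.11, 3.99 and 4.05 in decitabine arrays and 5.31, 4.39 and 4.67 in untreated arrays. The groups did not overlap, and the change was -0.74 (SE 0.18, adjusted p = 0.0501), or -0.48 without untreated replicate 1 and the block. MIR191 (-0.63, adjusted p = 0.158), MIR197 (-0.57, adjusted p = 0.0576) and MIR130B (-0.57, adjusted p = 0.0763) were also lower. MIR130B has a second feature, with a change of -0.31. MIR27B had the highest change of the 168 genes, with 2.88, 2.85 and 2.45 after decitabine and 2.34, 1.72 and 2.20 in untreated cells. Its groups did not overlap either, and its change was 0.64 (SE 0.19, adjusted p = 0.0844).

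For 23 sets of measured genes that give an identical mature strand, the genes of a set could be laid side by side. A set that shares both strands is counted once, and the let-7a-3p set lies within that of let-7a-5p. The changes within a set differed by 1.67 for let-7a-5p, 1.54 for miR-181b-5p and 1.17 for miR-181a-5p. In the other 20 sets they differed by 0.46 or less, the widest being MIR30C1 and MIR30C2 with -0.17 and 0.29. Whether a feature read the mature strand is not known, and no separate measurement of that strand was used here.

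The genes with the highest deposited values were, after MIR181B1, MIR205, MIR222, MIR185, MIR99B, MIR221, MIR92B, MIR196B, MIR149 and MIR98. MIR205, a microRNA of basal epithelium, had 5.99, 6.03 and 6.53 in decitabine arrays and 6.25, 5.87 and 6.0 in untreated arrays, a change of 0.14 (95% interval -0.29 to 0.58). MIR185 had 5.99, 5.08 and 6.10 after decitabine and 6.20, 5.33 and 5.40 in untreated cells, a change of 0.08. MIR99B and MIR149 had changes of 0.07 and -0.04. MIR92B had -0.37 (adjusted p = 0.339) and MIR196B 0.36 (adjusted p = 0.368). The groups overlapped for these 6 genes.

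Many microRNA genes are known for CpG methylation and silencing in tumours, among them the miR-9, miR-34, miR-124 and miR-200 genes. Of a list of 24 such genes 23 had a named feature, and MIR137 was not analysed here. In limma 0 rose and 0 fell, and at an unadjusted p under 0.05 there was 1, MIR200C, which was lower and passed with an intensity-dependent prior (adjusted p = 0.0284). Of the 23 genes 3 lay above the series median of 3.57, and 5.05% of all named genes at or below it rose or fell. With so few genes, 0 is near that background. Of the 7442 named genes at or below the series median 1081 had an unadjusted limma p under 0.05. No detection call was used, and whether features with such low values could show a rise was not tested. The median change was -0.06, with 13 below 0. The upper end of the 95% interval was at most 0.92, so a rise of 1 on the log2 scale was outside the interval for each of the 23. The range ran from -0.48 for MIR200C to 0.37 for MIR124-2. MIR200C had 1.62, 1.01 and 0.49 in decitabine arrays and 1.96, 1.57 and 1.03 in untreated arrays (adjusted p = 0.0589). MIR124-2, a brain microRNA gene, had 3.85, 2.98 and 3.98 after decitabine and 3.60, 2.98 and 3.11 in untreated cells (adjusted p = 0.269). MIR34A, a target of p53, had 2.54, 2.06 and 1.90 after decitabine and 3.04, 1.78 and 2.03 in untreated cells, with no clear order of the groups. Methylation itself was not measured in these files.

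The remaining families gave no gene past the threshold, with or without the block. The miR-200 genes (4 measured), whose products hold epithelial state by repressing ZEB1 and ZEB2, had a median of 0.01, and the miR-34 genes (3 measured) -0.12. The 8 measured genes of the miR-17 clusters, which promote proliferation, had a median of 0.06, led by MIR25 at 0.40 (adjusted p = 0.0857). The 5 genes of miR-15 and miR-16, which repress BCL2, had a median of 0.25 with 1 below 0. The 7 measured genes of miR-10, miR-99, miR-100 and miR-125 had a median of -0.23, with 6 below 0. The 6 genes of miR-30 had a median of 0.05, and the 6 of miR-23, miR-24 and miR-27 -0.08. At an unadjusted limma p under 0.05 there were 2 genes in each of the miR-10 and miR-23 groups, 1 in each of the miR-200 and miR-17 groups, and 0 in the miR-34, miR-15 and miR-30 groups. Above the series median lay 2 genes in each of the miR-15 and miR-23 groups, 1 in each of the miR-17 and miR-10 groups, and 0 in the miR-200, miR-34 and miR-30 groups. Of the 7442 named genes at or below it 5.05% passed, and 1081 had an unadjusted limma p under 0.05.

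Tissue-restricted microRNA genes also gave 0 genes past the threshold. Above the series median lay 1 of the neural, 0 of the muscle and 1 of the blood cell genes. Of all named genes at or below it 5.05% passed, so 0 is near the background for so few genes. Of those 7442 genes 1081 had an unadjusted limma p under 0.05. The 20 measured genes of neural microRNAs had a median of -0.06 and a range of -0.42 to 0.37, and 0 of them had an unadjusted limma p under 0.05. The 7 measured muscle genes, such as MIR1-1 and MIR206, had a median of -0.10, and their lowest was MIR133B at -0.44 (adjusted p = 0.0708), the only one with an unadjusted p under 0.05. The 5 blood cell genes had a median of 0.01, and 0 had an unadjusted limma p under 0.05. Among these MIR155, which is also active in triple-negative lines, had 4.16, 3.79 and 3.52 in decitabine arrays and 4.06, 4.03 and 3.12 in untreated arrays. MIR223 of myeloid cells had 1.77, 1.99 and 1.54 after decitabine and 1.77, 1.90 and 1.54 in untreated cells.

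Host and neighbour transcripts were set beside their microRNA genes for 54 listed pairs in which both were measured, with 41 different hosts. MIRLET7A2 with MIR100HG is not among these pairs and is left out of the counts below, though both were measured. Of these hosts 3 rose, 4 fell and the median change was -0.07. They were listed from textbook knowledge, and 17.1% passed, against 13.2% of all named genes, and 1 passed without the block. The sign of the change was the same for microRNA gene and host in 27 of the 54 pairs, and in 9 of the 14 pairs whose host passed. Some hosts, such as MCM7, AOPEP and MIR99AHG, stand in several pairs, so the pairs are not separate observations. MIR181A1HG with MIR181B1 was the only pair in which both passed.

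MCM7, a replication helicase subunit that hosts MIR25, MIR93 and MIR106B, had 6.59, 6.71 and 6.61 in decitabine arrays and 5.73, 5.64 and 5.55 in untreated arrays. It rose by 1.00 (SE 0.12, adjusted p = 0.00725, and 0.0316 without the block), while the 3 microRNA genes had changes of 0.40, 0.18 and -0.04. VMP1, an autophagy gene beside MIR21, rose by 0.74 (adjusted p = 0.0173), and MIR21, an oncogenic microRNA, had a change of -0.26 (adjusted p = 0.245). AOPEP, an aminopeptidase gene that holds MIR23B, MIR27B and MIR24-1, rose by 0.71 (adjusted p = 0.0197). The 3 microRNA genes had changes of -0.01, 0.64 and -0.07.

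MIR99AHG, the host of MIRLET7C, MIR99A and MIR125B2, fell by 0.68 (adjusted p = 0.0296), and the 3 genes had changes of -0.36, -0.31 and -0.32. SLIT2, an axon guidance ligand that holds MIR218-1, fell by 0.64 (adjusted p = 0.0415), beside -0.38 for MIR218-1. TANGO2, which holds MIR185, fell by 0.53 (adjusted p = 0.0392), beside 0.08 for MIR185. Of the 7 hosts that passed, these 6 other than MIR181A1HG gave 0 microRNA genes past the threshold.

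**Figure D4:**
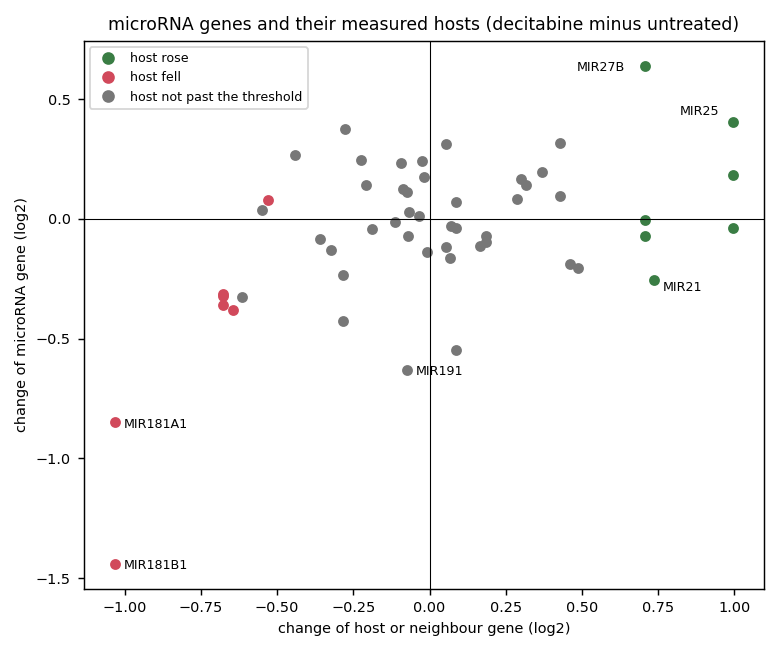
Change after decitabine of a microRNA gene (vertical axis) against that of its host or neighbour gene (horizontal axis), both log2, decitabine minus untreated, for the 54 listed pairs with both measured. MIRLET7A2 is not among them. Points are coloured by the call of the host. MIR181B1 and MIR181A1 lie at the lower left with their host at -1.03, and MIR21 lies below 0 with its neighbour at 0.74.

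Of a list of 35 genes that make microRNAs or act with them, 20 had a named feature, and DROSHA, DICER1 and AGO1 to AGO4 were not analysed here. After decitabine 4 rose and 0 fell, with a median of -0.02. The share that passed was 20%, against 13.2% of all named genes and 21.3% of those above the series median, where 17 of the 20 lay, so it is near the background for genes of such values. At an unadjusted p under 0.05 there were 7 higher and 2 lower. Of the 7442 named genes above the series median 3125 were under it, 1659 higher and 1466 lower. LIN28B, which blocks let-7 processing, had 3.63, 3.08 and 2.90 in decitabine arrays and 2.08, 1.98 and 1.61 in untreated arrays. The groups did not overlap, and LIN28B rose by 1.31 (SE 0.14, adjusted p = 0.00461, and 0.038 without the block). LIN28A had a change of -0.32 (adjusted p = 0.229).

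GEMIN4, a partner of Argonaute in a ribonucleoprotein, rose by 0.77 (adjusted p = 0.0141), SRRT, which links the cap-binding complex to Drosha, by 0.73 (adjusted p = 0.0279), and the Drosha cofactor DDX5 by 0.53 (adjusted p = 0.0417). None of these 3 passed without the block. DGCR8, the partner of Drosha, had a change of 0.41 (adjusted p = 0.0829) and XPO5, which exports hairpins, -0.37 (adjusted p = 0.136).

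Of 23 genes listed as textbook targets of these microRNAs 20 had a named feature, 5 rose and 4 fell. That is 45%, against 13.2% of all named genes and 21.3% of those above the series median, where 14 of the 20 lay. The targets were listed with earlier results of these data known, so nothing is read from that share. Of the let-7 targets, IGF2BP1, an RNA-binding protein of embryonic tissue, had 5.85, 5.47 and 5.53 in decitabine arrays and 3.34, 2.68 and 2.26 in untreated arrays. It rose by 2.86 (SE 0.17, adjusted p = 0.00104). HMGA2, a chromatin protein, rose by 0.77 (adjusted p = 0.016), and did not pass without the block (adjusted p = 0.489). IGF2BP2 and IGF2BP3, from the same family, had changes of -0.44 and -0.01 and did not pass.

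DNMT3B, a DNA methyltransferase and target of miR-29, had 4.72, 4.73 and 4.83 after decitabine and 3.03, 3.06 and 3.0 in untreated cells. It rose by 1.73 (SE 0.12, adjusted p = 0.00138), while DNMT3A had a change of 0.11. BCL2L11, a death gene that miR-221 and miR-222 among others repress, rose by 1.45 (adjusted p = 0.00504). BCL2, a survival gene and target of miR-15, miR-16 and miR-181, fell by 1.51 (adjusted p = 0.0182), with 3.65, 4.13 and 3.95 in decitabine arrays and 4.68, 5.33 and 6.26 in untreated arrays. PDCD4, a target of miR-21, fell by 0.79 (adjusted p = 0.0172). ZEB2 fell by 0.61 (adjusted p = 0.0261) and ZEB1 by 0.51 (adjusted p = 0.0438), both drivers of mesenchymal state and targets of miR-200. BCL2, PDCD4, ZEB1 and ZEB2 did not pass without the block. Whether a microRNA had a part in any of these changes was not tested.

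**Figure D5:**
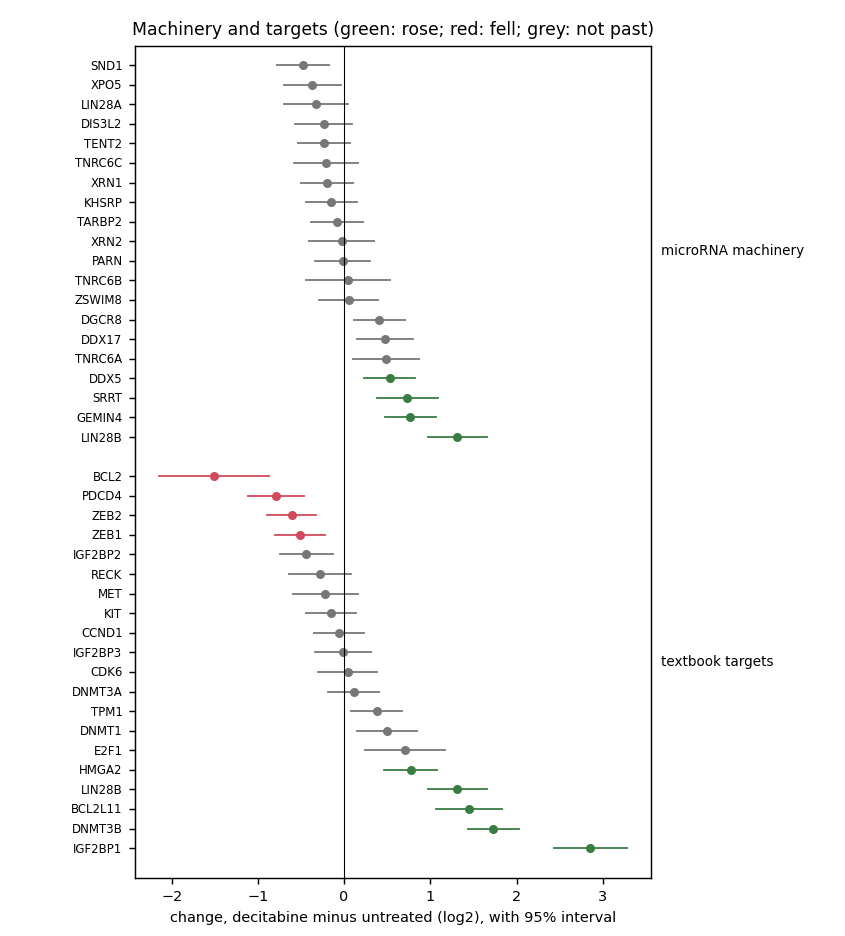
Change after decitabine (log2, decitabine minus untreated) with its 95% interval for the 20 measured genes of the microRNA machinery and the 20 measured textbook targets, green for genes that rose and red for genes that fell. LIN28B stands in both lists at 1.31, and IGF2BP1 has the highest change at 2.86.

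Markers of the line were checked in the same arrays. The mesenchymal markers VIM and FN1 had values of 8.66 to 8.97 and 10.80 to 11.14 in decitabine arrays, and 9.13 to 9.68 and 10.39 to 10.93 in untreated arrays. CD44, of the same list, had 6.47 to 7.27 after decitabine and 6.14 to 7.0 in untreated cells. The hormone receptors ESR1 and PGR lay at 1.5 to 2.95 after decitabine and 1.54 to 2.43 in untreated cells. GATA3, also of the luminal list, had higher values, 5.32 to 5.79 after decitabine and 5.49 to 5.74 in untreated cells. AXL fell by 1.79 and the epithelial marker EPCAM rose by 1.10 (adjusted p = 0.00138 and 0.00829), and EPCAM did not pass without the block (adjusted p = 0.127). Of 5 leukocyte markers 2 had a named feature. CD14 was at 3.08 to 3.34 after decitabine and 2.32 to 2.60 in untreated cells. It rose by 0.72 (adjusted p = 0.0247), and did not pass without the block (adjusted p = 0.115). LYZ was at 1.04 to 2.20 after decitabine and 1.04 to 2.15 in untreated cells. The part of these markers in the microRNA results was not tested. Array medians over all features were 2.98, 2.40 and 2.37 in decitabine replicates 1 to 3, and 3.03, 2.42 and 2.29 in untreated ones, so both arrays of replicate 1 stood higher. Without the replicate 1 pair the changes were -1.56 for MIR181B1, -2.12 for MIRLET7A2 and -0.795 for MIR221, and 0 genes of the whole table passed in that fit, which has 1 residual degree of freedom.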

How the data were processed

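The deposited table held 1 value for each of 48226 features in 6 arrays. Per the submitters' processing notes, the authors used the Transcriptome Analysis Console to make them. Which software version, normalization, filtering and build they used is not given in the sources used here. From their range the values deposited by the authors were taken to be log2 levels (0.17 to 12.89), and every fold rests on that reading. Of the features, 16098 had 1 gene symbol and 32128 had none and were not used. For each gene the feature whose mean over all arrays was highest was kept.

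Changes were tested with limma 3.58.1 in R 4.3.3 (lmFit and eBayes, all 6 arrays, replicate number as a block, two-sided), with p-values adjusted by the Benjamini-Hochberg method over 14884 genes. An adjusted p under 0.05 counts as a rise or a fall. The fit was tested on simulated data. The numbers are from the sample titles. The samples were treated as pairs because the comparison was set as paired by replicate number. The deviations from the group means correlated at 0.682, 0.595 and 0.558 between same-numbered arrays of the 2 groups, and at -0.01 to -0.48 between the others. Deviations within a group sum to 0, so the negative values follow in part from the positive ones and are no separate support. The number of arrays limits the precision.

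The genes, lists and tests were chosen with earlier results of these data known. Genes named are those that passed, the 10 largest changes that did not pass, the 10 highest values, and the most changed of each family, machinery, host and target list; MIRLET7A3, MIR34A, MIR155, MIR223, LIN28A, DGCR8, XPO5, DNMT3A, IGF2BP2 and IGF2BP3 were added for their known roles after their values were seen, as were the remaining genes named as neighbours or copies. Hairpins and mature strands were matched to RefSeq (GRCh38.p14) by gene identifier, and clusters join genes with a hairpin entry on 1 strand no more than 10000 bases apart. Alternatives were no block, quantile normalization, median centring, leaving out the dimmer 50% of genes, the mean over features, all features, an intensity-dependent prior and leaving out arrays.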

Additional observations from a re-analysis of the deposited data

How the results depend on the processing

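The count of 3 microRNA genes past the threshold became 2 without the replicate block, 8 with quantile normalization, 6 after centring on medians, 6 once the dimmer 50% of genes were dropped (32 of the 168 genes then remained), 4 with the mean over features and 6 with an intensity-dependent prior. All genes called under these settings were lower after decitabine. MIR181B1 passed in each of them. MIRLET7A2 passed in all but the one that removed it as dim. MIR221 passed in all but the fit without the block. MIR29A passed with quantile normalization, median centring and the intensity-dependent prior (adjusted p = 0.0447, 0.015 and 0.0247), and MIR146A with median centring, without the dimmer genes, with the mean over features and with the intensity-dependent prior (0.0217, 0.0231, 0.0492 and 0.0323). MIR130B, MIR98 and MIR24-2 passed with quantile normalization and without the dimmer genes, MIR197 with quantile normalization and median centring (0.0475 and 0.0493), and MIR200C with the intensity-dependent prior (0.0284). Leaving out a pair of arrays leaves 1 residual degree of freedom, and then 0 genes of the whole table passed, with 21, 9 and 15 of the 168 genes at an unadjusted p under 0.05. With single arrays left out, without the block and chosen after seeing the data, 0 to 3 of the 168 genes passed, and both MIR181B1 and MIRLET7A2 passed only without decitabine replicate 1 or without untreated replicate 1. MIR181B1 had an adjusted p of 0.0197 to 0.068, MIRLET7A2 of 0.00833 to 0.125 and MIR221 of 0.289 to 0.682. Of the changes of at least 0.5 that did not pass, those of MIR191, MIRLET7E, MIRLET7I, MIR130B, MIR197 and MIR27B also moved by more than 1.5 times when some array or pair was left out, without turning sign. The machinery count of 4 became 1 without the block, 2 over all features, 8 with the intensity-dependent prior and 0 with any pair left out. The host count of 7 became 1 without the block, 4 over all features and 0 with any pair left out. Of all named genes 13.2% passed in the main fit and 3.03% without the block. That share is not given here for the other processing settings, nor for unadjusted p with a pair left out. Whether the microRNA, machinery and host counts above follow calls in general was therefore not tested. The median change of -0.04 was -0.085 without the dimmer genes. Changes near 0 turned sign when arrays were left out: MIR205 had -0.05 to 0.345 with a pair left out and -0.03 without decitabine replicate 3. MIR185 had -0.23 to 0.245 with a pair left out and -0.11, -0.0767, -0.0533 and -0.0417 with single arrays left out. MIR99B had -0.06 to 0.205 with a pair left out and -0.16 without decitabine replicate 1, and MIR149 had -0.35 to 0.32 with a pair left out and 0.32 without untreated replicate 1. The cause of these shifts was not tested.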

Other observations

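Across the 150 microRNA genes with a RefSeq hairpin, the GC content of the hairpin ran from 32% to 75%, and it correlated with the mean deposited value at a Spearman rho of 0.37 (Pearson 0.35). The points share the 6 arrays, and a feature's brightness can depend on its base composition, so this is a description of features and not of amounts of RNA. The 73 genes with the higher GC content had a median change of -0.04 and a median value of 2.46, and the 77 with the lower GC content had -0.05 and 1.61.

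Of the 150 genes with a hairpin entry, 60 lay in 27 clusters of genes on 1 strand. Genes without an entry, MIR181A2 and MIR93 among them, were not placed in clusters, so these counts leave out their neighbourhoods. The cluster of MIR99B, MIRLET7E and MIR125A on chromosome 19, which spans 728 bases, had changes of 0.07, -0.55 and -0.04. MIR99B had 5.70, 4.91 and 5.14 in decitabine arrays and 5.37, 5.11 and 5.06 in untreated arrays. MIRLET7E had 3.81, 3.20 and 2.69 after decitabine and 4.61, 3.97 and 2.76 in untreated cells, so that the pair of replicate 3 was nearly level.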
